A study of Mus musculus with 12 samples.

Results

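Kidney expression of the IL-1 family was followed through 10 genes of the 35275 in the count table. They were the cytokine genes *Il1a*, *Il1b*, *Il18* and *Il33*, the receptor genes *Il1r1*, *Il1rap*, *Il1rl1* and *Il18r1*, and the genes of the soluble inhibitors, *Il1rn* and *Il18bp*. The genes were chosen by name, and each name matched a single row of the table. Poly(A) RNA was sequenced from kidneys of 12 C57BL/6J mice at 6 months of age, 4 in each of 3 groups, to ask how loss of *Casp1* changes gene expression in cystic kidneys. WT mice carried neither mutation. RC/RC mice carried on both chromosomes the RC allele of *Pkd1*, a hypomorphic knock-in that lowers polycystin-1 function in all cells and gives slowly progressive cystic disease. RC/RC:*Casp1*KO mice, the double mutants, carried the same *Pkd1* alleles and, also on both chromosomes and in all cells, a *Casp1* allele with a small deletion made with TALENs across the splice donor of the exon that encodes the active-site cysteine. A single such mutation was bred into the RC/RC mice, and *Casp1* was disrupted only together with RC/RC, so no group carried the deletion on a WT background. Each group held 2 females and 2 males, but the columns of the table give no sex, so no result is given by sex. The mice of each group are lettered A to D in the order of the numbers in the column names, and values per mouse are given in that order.

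The IL-1 family cytokines are alarm signals that act through paired receptor chains. IL-1α and IL-1β bind the receptor encoded by *Il1r1*, which signals together with the accessory protein encoded by *Il1rap*, and the antagonist encoded by *Il1rn* occupies the same receptor without signalling. IL-18 binds the receptor encoded by *Il18r1* and is neutralized by the binding protein encoded by *Il18bp*, while IL-33 binds ST2, encoded by *Il1rl1*, again with the accessory protein. IL-1β, made mostly by myeloid cells, and IL-18, made also by tubular epithelium, are produced as inactive precursors that caspase-1 cuts inside the inflammasome, whereas IL-33 is a nuclear protein of stromal, endothelial and epithelial cells that is active when damaged cells release it. Read counts measure the transcripts and not this processing.

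In RC/RC kidneys, 6 of the 9 members that could be tested were higher than in WT, namely *Il1b*, *Il33*, *Il1rn*, *Il1r1*, *Il1rl1* and *Il18r1*, by 2.03-fold (*Il1r1*) to 15.4-fold (*Il1rn*), and none was lower. Over all genes, 9.76% of the 15243 tested were higher and 3.18% lower in this comparison, so 75.44% of DEGs were higher, and 86.14% with scaling by library size alone. Between the mutant groups, with RC/RC as the reference, 1 of 9 members changed: *Il33* fell to 0.358 of its RC/RC level, against a background of 4.41% of all genes called lower and 7.23% called higher, 11.6% in all. *Il1b* and *Il18r1* had nearly the same mean in both mutant groups, over mice that differed widely within each. Between RC/RC:*Casp1*KO and WT, 1 of 8 members was called, *Il18r1*, 5.47-fold higher, against 1.13% of all genes called higher and 2.03% called in either direction. Here and below, a gene was called, as a DEG, when its p-value from edgeR's quasi-likelihood test, adjusted by Benjamini-Hochberg over all genes tested in that comparison, was under 0.05. Levels are in CPM, read counts scaled to library size with TMM factors of all 12 libraries.

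The reads counted per library were 20556335 to 22656309 in WT, 18019819 to 24284831 in RC/RC and 18738755 to 24869454 in RC/RC:*Casp1*KO. The members lie low in these libraries, and 3 counts, taken as the smallest signal told from none, correspond to 0.145 CPM in WT, 0.141 CPM in RC/RC and 0.141 CPM in RC/RC:*Casp1*KO. Kidney identity was plain in all libraries: the 6 proximal tubule markers summed to 3648 CPM or more in each mouse, with *Slc34a1*, the sodium-phosphate cotransporter, the most abundant. The *Casp1* counts checked the knockout label. *Casp1* had 43, 27, 26 and 30 reads in the WT mice, 87, 73, 79 and 61 in the RC/RC mice and 12, 10, 23 and 14 in the RC/RC:*Casp1*KO mice. All RC/RC:*Casp1*KO mice thus lay below all others, at 0.693 ± 0.278 CPM (SD, n = 4) against 3.51 ± 0.705 in RC/RC and 1.51 ± 0.361 in WT. Between the mutants this was a log2 difference of −2.35 (standard error 0.32, edgeR adjusted p = 0.00514), and against WT it was −1.12 (standard error 0.35, edgeR adjusted p = 0.128). *Pkd1* was at 53.0 ± 13.8 CPM in WT, 55.2 ± 9.85 in RC/RC and 71.6 ± 12.6 in RC/RC:*Casp1*KO (SD, n = 4 each) and was not called. The RC allele changes the coding sequence, so the *Pkd1* count does not check that genotype.

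A pair of libraries stood apart within their groups. RC/RC mouse B had 234 CPM summed over 4 adipocyte genes, with *Adipoq* the most abundant, where RC/RC mouse D had 26.4 CPM and the other RC/RC mice at most 0.107. This sum was 10.6, 0, 0.276 and 12.2 CPM in the RC/RC:*Casp1*KO mice. In WT it was 6.09 CPM in mouse C and at most 0.191 in the other mice. RC/RC mouse B also had the highest *Il33* and the highest fibroblast gene sum of all 12 mice. RC/RC:*Casp1*KO mouse C had 138 CPM summed over the pan-leukocyte genes *Ptprc*, *Laptm5* and *Coro1a*, against 50.1 to 67.3 in the other mice of its group. It had the highest *Il1b*, *Il1rn*, *Il1rl1*, *Il18r1*, *Il1r1* and *Il33* of that group. Values without one or both of these libraries are given for the members that they touched most. In WT and RC/RC:*Casp1*KO the libraries also fell into pairs. Over all genes with at least 20 counts in a pair, the chi-square per degree of freedom between libraries was 17.7 for WT mice A and B and 16.4 for C and D, against 89.8 to 127 for the other WT pairs. It was 31.8 for RC/RC:*Casp1*KO mice A and C and 15.7 for B and D, against 67.1 to 93.4 for the other pairs of that group. In RC/RC, mice C and D were the closest, at 37.2, and the other pairs lay between 67.6 and 128. RC/RC mice A and B, at 69.7, were no closer than B and C, at 67.6. *Slc22a6*, an organic anion transporter of the proximal tubule, also differed between 2 mice and the other 2 of each group, at 241 and 398 CPM in WT mice A and B against 1096 and 1006 in C and D, at 212 and 184 CPM in RC/RC mice A and B against 622 and 887 in C and D, and at 988 and 856 CPM in RC/RC:*Casp1*KO mice A and C against 274 and 278 in B and D. What the pairs share is not given by the columns, the tests treat the 4 mice of a group as 1 set, and the part of the pairs in the results was not tested.

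**Figure D1:**
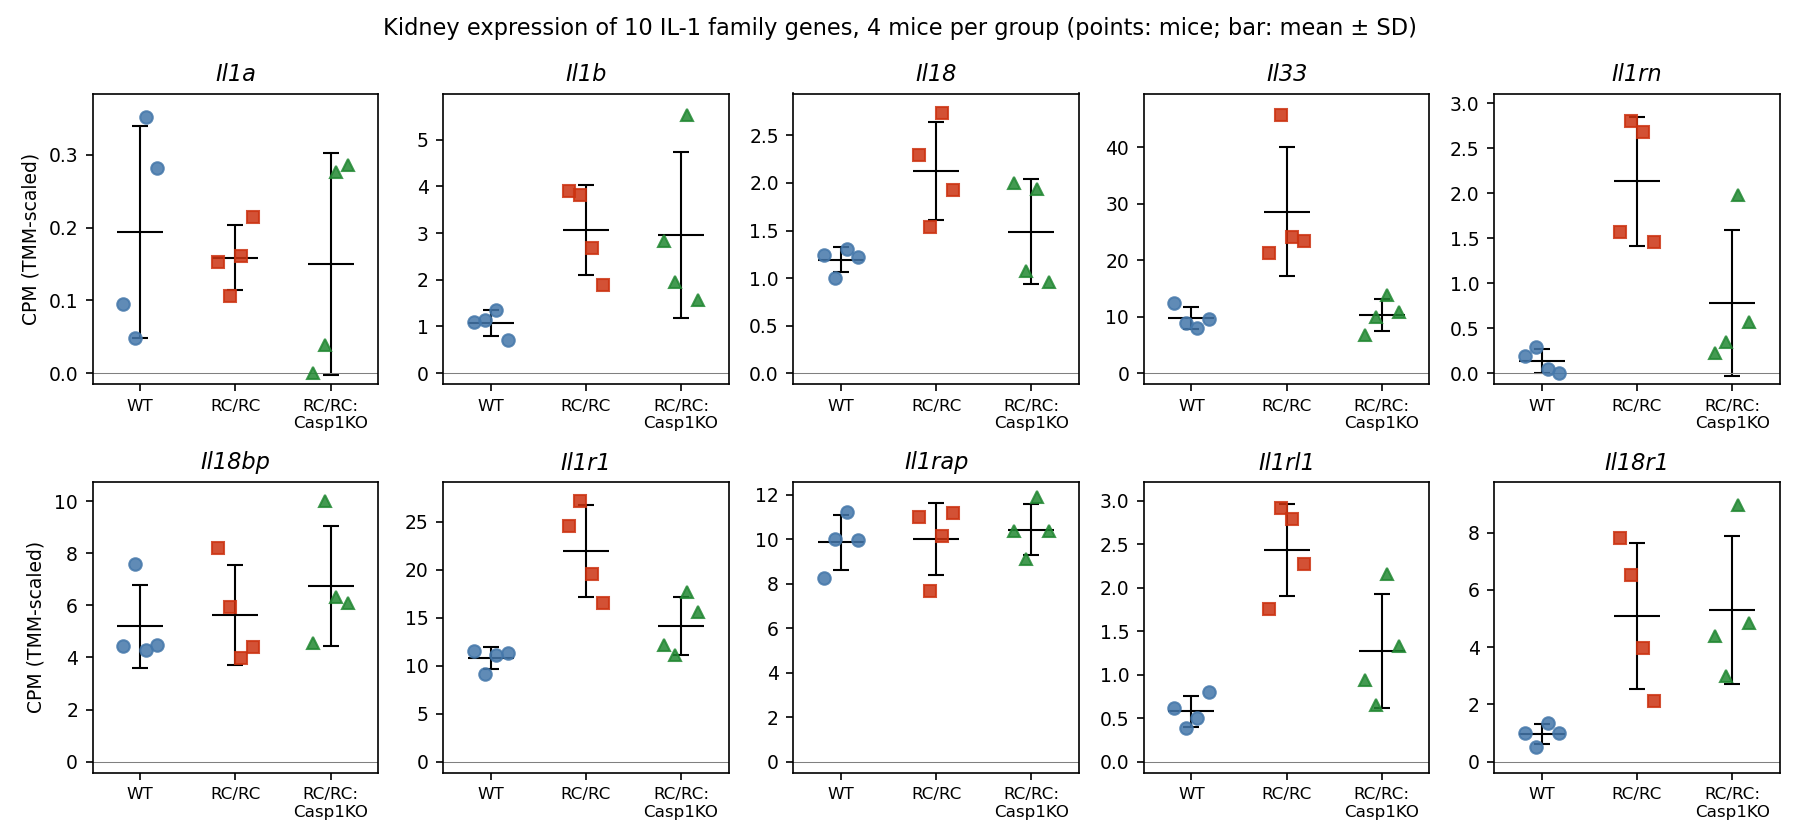
Expression of the 10 IL-1 family genes in each kidney, in CPM on a linear axis of its own for each gene. Points are mice (circles WT, squares RC/RC, triangles RC/RC:*Casp1*KO), and black bars are the mean ± SD of 4 mice. For *Il33* the RC/RC mice, at 21.3 to 45.7 CPM, lie above all others, while for *Il18r1* both mutant groups lie above WT.

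The promoters of *Il33*, *Il1rn* and *Il1b* are shown because these genes, a pair of cytokines and the antagonist of one of them, all rose in RC/RC kidneys. RefSeq promoter windows in GRCm38.p6, the patch series of the mm10 build named in the submitters' processing notes, matched all 10 members, and for 8 of them a window held the gene start listed in the count table. Each window runs from 250 bases before a start site to 50 after it, and is printed here to 30 after it, 5′ to 3′ on the strand of the gene. *Il33* is shown at chr19:29924863-29925142 (plus strand), *Il1rn* at chr2:24336610-24336889 (plus strand) and *Il1b* at chr2:129371110-129371389 (minus strand). Capitals mark matches, on either strand, to any of 6 short motifs: TGANTCA (AP-1, in 7.81% of all 32851 mouse promoter windows), the NF-κB consensus (19.49%), TATAAA (the core promoter box, 13.62%), CACGTG (E-box, 7.15%), GGAATG (TEAD, 14.66%) and GAGGAA (PU.1, 28.28%), of which GAGGAA and GGAATG can overlap.
Il33: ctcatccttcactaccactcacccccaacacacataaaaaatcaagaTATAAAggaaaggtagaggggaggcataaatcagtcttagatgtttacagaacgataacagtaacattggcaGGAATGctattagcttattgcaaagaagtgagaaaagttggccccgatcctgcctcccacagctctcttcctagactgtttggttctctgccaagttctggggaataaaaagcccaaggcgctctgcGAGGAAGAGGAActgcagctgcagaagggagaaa
Il1rn: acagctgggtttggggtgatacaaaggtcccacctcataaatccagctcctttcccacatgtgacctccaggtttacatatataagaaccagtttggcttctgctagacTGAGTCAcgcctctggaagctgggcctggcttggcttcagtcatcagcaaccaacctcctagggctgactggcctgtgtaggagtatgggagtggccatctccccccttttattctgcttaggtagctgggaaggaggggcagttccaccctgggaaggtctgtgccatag
Il1b: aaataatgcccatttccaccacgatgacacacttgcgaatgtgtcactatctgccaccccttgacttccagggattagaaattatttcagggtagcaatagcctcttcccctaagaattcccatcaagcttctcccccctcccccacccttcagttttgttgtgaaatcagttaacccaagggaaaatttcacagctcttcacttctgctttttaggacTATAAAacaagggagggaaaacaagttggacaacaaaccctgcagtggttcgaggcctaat
The *Il1b* window held TATAAA starting at −31 from the start site and no match to the other letters. The *Il1rn* window held 1 AP-1 match, TGAGTCA at −141. The *Il33* window, 1 of 2 that RefSeq gives, held TATAAA far upstream at −203, GGAATG at −131 and GAGGAA at −4, spanning the start, and again at 3. RefSeq lists other starts for *Il1rn*, and their windows, which overlap each other, held a match to the NF-κB consensus, which no window of the other 9 members had. *Il1a* was the other member with an AP-1 match, TGACTCA at −12. A match describes letters and is not a measured binding site.

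Among the cytokines, *Il1b* (chr2:129364570-129371139, minus strand) had 23, 24, 27 and 15 reads in the WT mice, 102, 72, 50 and 44 in RC/RC and 51, 51, 120 and 33 in RC/RC:*Casp1*KO. These were 1.08 ± 0.271 CPM in WT, 3.07 ± 0.964 in RC/RC and 2.97 ± 1.78 in RC/RC:*Casp1*KO (SD, n = 4 each). Every mouse of both mutant groups lay above every WT mouse, and the mutant groups overlapped fully, with RC/RC:*Casp1*KO mouse C the highest of all. The increase in RC/RC over WT was 1.51 on the log2 scale (standard error 0.32, edgeR adjusted p = 0.0141). The mutant groups differed by −0.06 (standard error 0.40, edgeR adjusted p = 0.935). This mean covers unlike mice. In RC/RC, mice A and B, with the lower *Slc22a6*, were at 3.90 and 3.81 CPM of *Il1b* and C and D at 2.68 and 1.89. In RC/RC:*Casp1*KO, mice A and C, with the higher *Slc22a6*, were at 2.83 and 5.52 CPM and B and D at 1.95 and 1.57. Whether the difference between the mutants depends on what these pairs share was not tested. In RC/RC:*Casp1*KO *Il1b* was 1.46 above WT on the log2 scale (standard error 0.42), close to the RC/RC value, but did not pass (edgeR adjusted p = 0.114). With DESeq2 it passed, at 1.44 (adjusted p = 0.0213), and over the other alternatives the edgeR adjusted p was 0.0814 to 0.231. Without RC/RC:*Casp1*KO mouse C the difference from WT was 0.97 (edgeR adjusted p = 0.231) and that from RC/RC was −0.54 (edgeR adjusted p = 0.313). A gene on the opposite strand, *Il1bos*, overlaps *Il1b*. Whether the counting used strand is not given in the sources used here, so their reads cannot be told apart, but *Il1bos* had 58 reads in all 12 mice against 612 for *Il1b*.

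*Il33* (chr19:29925114-29960718, plus strand) had the highest mean level per length of the members in WT and RC/RC kidneys, and it separated the mutant groups. It was at 12.5, 8.95, 8.05 and 9.66 CPM in the WT mice, 21.3, 45.7, 24.1 and 23.3 in RC/RC and 6.76, 9.85, 13.8 and 10.8 in RC/RC:*Casp1*KO. The 4 RC/RC mice lay above all 8 others, and the RC/RC:*Casp1*KO mice ran from below to above the WT range. *Il33* was 2.92-fold higher in RC/RC than WT (log2 fold change 1.54, standard error 0.26, edgeR adjusted p = 0.00529). From RC/RC to RC/RC:*Casp1*KO its level dropped by 1.48 in log2 units (standard error 0.28, edgeR adjusted p = 0.0167). The double mutants differed from WT by 0.08 (standard error 0.23, edgeR adjusted p = 0.861). Without RC/RC mouse B, by far the highest, the increase over WT was 1.20 and still passed (edgeR adjusted p = 0.00422). The log2 difference between the mutants was then −1.14 and also passed (edgeR adjusted p = 0.0261), as it did without both this mouse and RC/RC:*Casp1*KO mouse C, at −1.29 (edgeR adjusted p = 0.0171). The call was lost narrowly without RC/RC:*Casp1*KO mouse B (−1.46, edgeR adjusted p = 0.0502) or mouse D (−1.51, edgeR adjusted p = 0.0512), although the difference itself hardly moved. A stretch of 159 bases in its reference transcripts is identical to *Gm41832*, so some reads could be shared with that gene.

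*Il18* (chr9:50575273-50581837, plus strand) had 26, 21, 26 and 26 reads in the WT mice, 60, 29, 51 and 45 in RC/RC and 36, 28, 42 and 20 in RC/RC:*Casp1*KO. Its levels were 1.19 ± 0.134, 2.12 ± 0.513 and 1.49 ± 0.553 CPM (SD, n = 4 each). All RC/RC mice were above all WT mice, yet the log2 difference of 0.83 (standard error 0.26) did not pass over all genes (edgeR adjusted p = 0.0660). The RC/RC:*Casp1*KO mice A and C were at 2.00 and 1.93 CPM, within the RC/RC range, and B and D at 1.07 and 0.953 CPM, below it, the same pairs in which the libraries of this group fell over all genes, with a log2 difference of −0.53 from RC/RC (standard error 0.32, edgeR adjusted p = 0.286) and 0.32 from WT (standard error 0.31, edgeR adjusted p = 0.566). The row of *Il18* needs care, because its gene model spans 702 transcribed bases, its listed start lies outside the RefSeq promoter window, and parts of its reference transcripts, up to 176 bases long, match 51 other genes at 95% identity or more.

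*Il1a* was hardly detected. It had 2, 1, 7 and 6 reads in the WT mice, 4, 2, 3 and 5 in RC/RC and 0, 1, 6 and 6 in RC/RC:*Casp1*KO, too few in every group for a test. It overlaps *Gm14023* on the opposite strand, which had 130 reads in all 12 mice against 43 for *Il1a*, so part of even these reads may belong to the other gene.

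The antagonist gene *Il1rn* (chr2:24336853-24351494, plus strand) showed the largest fold change of the members between RC/RC and WT. It had 4, 6, 1 and 0 reads in the WT mice, 41, 53, 50 and 34 in RC/RC and 4, 9, 43 and 12 in RC/RC:*Casp1*KO. In CPM these were 0.132 ± 0.131 in WT, around the level of 3 counts, 2.13 ± 0.715 in RC/RC and 0.779 ± 0.813 in RC/RC:*Casp1*KO (SD, n = 4 each). RC/RC was 3.94 higher than WT on the log2 scale, 15.4-fold (standard error 0.62, edgeR adjusted p = 0.00407). This fold rests on 11 reads over the 4 WT mice, and *Il1rn* passed the filter on low counts through the RC/RC mice alone, here and in the comparison of the mutants. In RC/RC:*Casp1*KO, mouse C was within the RC/RC range and the other 3 mice, at 0.222 to 0.572 CPM, lay below all RC/RC mice. The log2 difference from RC/RC was −1.45 (standard error 0.60, edgeR adjusted p = 0.134). Without RC/RC:*Casp1*KO mouse C it was −2.46 and passed (edgeR adjusted p = 0.0158), and without RC/RC mouse B as well it was −2.26 (edgeR adjusted p = 0.0327). Between RC/RC:*Casp1*KO and WT the gene was not tested, since too few mice reached the filter.

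The other inhibitor gene, *Il18bp*, was at 4.43, 7.57, 4.27 and 4.48 CPM in the WT mice, 8.22, 5.93, 3.97 and 4.42 in RC/RC and 4.55, 10.004, 6.30 and 6.10 in RC/RC:*Casp1*KO. The 3 groups overlapped. Log2 differences were 0.12 for RC/RC against WT (standard error 0.29, edgeR adjusted p = 0.807), 0.25 between the mutants (standard error 0.29, edgeR adjusted p = 0.584) and 0.38 for RC/RC:*Casp1*KO against WT (standard error 0.28, edgeR adjusted p = 0.442). Its end lies 120 bases from *Numa1*, a strongly expressed gene on the opposite strand whose reference transcripts share 297 identical bases with those of *Il18bp*, so some of its reads may be those of *Numa1*, which itself was higher in RC/RC:*Casp1*KO than RC/RC (log2 fold change 0.49, edgeR adjusted p = 0.0462).

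The receptor genes fell into those that rose in RC/RC kidneys and the accessory chain, which was not called in any comparison. *Il1r1*, the signalling receptor of IL-1, was at 11.5, 9.14, 11.1 and 11.4 CPM in the WT mice, 24.5, 27.1, 19.5 and 16.5 in RC/RC and 12.1, 11.1, 17.6 and 15.6 in RC/RC:*Casp1*KO. RC/RC exceeded WT in every mouse, by 1.02 on the log2 scale (standard error 0.17, edgeR adjusted p = 0.00533). The double mutants lay between, overlapping both, at −0.64 from RC/RC (standard error 0.19, edgeR adjusted p = 0.0571) and 0.39 from WT (standard error 0.17, edgeR adjusted p = 0.215), the latter 0.27 without RC/RC:*Casp1*KO mouse C (edgeR adjusted p = 0.451). This was the member nearest to the threshold in the comparison of mutants, and it passed when RC/RC mouse D (−0.75, edgeR adjusted p = 0.0365) or RC/RC:*Casp1*KO mouse C (−0.76, edgeR adjusted p = 0.0485) was left out, with DESeq2 (adjusted p = 0.0216) and in the fit of all 12 mice (edgeR adjusted p = 0.0425). *Il1rap*, which pairs with the receptors of both IL-1 and IL-33, was at 9.85 ± 1.22 CPM in WT, 9.997 ± 1.61 in RC/RC and 10.4 ± 1.14 in RC/RC:*Casp1*KO (SD, n = 4 each). All its log2 differences were between 0.02 and 0.08, with standard errors of 0.14 to 0.17 and edgeR adjusted p = 0.746 to 0.944.

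*Il1rl1*, the IL-33 receptor, and *Il18r1*, the IL-18 receptor, are neighbours on chromosome 1, where *Il18r1* (chr1:40465552-40500854) begins 137 bases after the end of *Il1rl1* (chr1:40429570-40465415) on the same strand. *Il1rl1* had 13, 8, 10 and 17 reads in the WT mice, 46, 55, 52 and 53 in RC/RC and 17, 17, 47 and 28 in RC/RC:*Casp1*KO. *Il18r1* had 21, 11, 27 and 21 in WT, 204, 123, 74 and 49 in RC/RC and 79, 78, 195 and 102 in RC/RC:*Casp1*KO. Both rose in RC/RC with no overlap with WT. *Il1rl1* was 4.17-fold higher in RC/RC than WT (log2 fold change 2.06, standard error 0.31, edgeR adjusted p = 0.00341), having passed the filter through the RC/RC mice. *Il18r1* was 5.25-fold higher (log2 fold change 2.39, standard error 0.44, edgeR adjusted p = 0.00851), with a wide spread among RC/RC mice, from 2.10 to 7.80 CPM.

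In RC/RC:*Casp1*KO kidneys *Il1rl1* was at 1.27 ± 0.657 CPM (SD, n = 4), between WT (0.576 ± 0.179) and RC/RC (2.43 ± 0.529). Its log2 difference from RC/RC was −0.95 (standard error 0.37, edgeR adjusted p = 0.119), and −1.32 without RC/RC:*Casp1*KO mouse C (edgeR adjusted p = 0.0466). Against WT, where it passed the filter through the RC/RC:*Casp1*KO mice, it was 1.14 higher (standard error 0.43, edgeR adjusted p = 0.176), and 0.75 without RC/RC:*Casp1*KO mouse C (edgeR adjusted p = 0.399). *Il18r1* was at 5.30 ± 2.58 CPM, against 5.10 ± 2.55 in RC/RC and 0.968 ± 0.342 in WT (SD, n = 4 each). Its log2 difference from RC/RC was 0.05 (standard error 0.43, edgeR adjusted p = 0.949), and −0.32 without RC/RC:*Casp1*KO mouse C. As for *Il1b*, RC/RC mice A and B, at 7.80 and 6.51 CPM, lay above C and D, at 3.97 and 2.10, while RC/RC:*Casp1*KO mice A and C were at 4.38 and 8.97 and B and D at 2.98 and 4.86. Against WT it was 2.45 higher (standard error 0.40, edgeR adjusted p = 0.0235), with no overlap. Without RC/RC:*Casp1*KO mouse C it was 2.07 (edgeR adjusted p = 0.0359). The call against WT was lost, at log2 differences of 2.25 to 2.49, without WT mouse A (edgeR adjusted p = 0.0688), WT mouse B (0.0618), WT mouse D (0.0733) or RC/RC:*Casp1*KO mouse D (0.0601). Whether *Il1rl1* and *Il18r1* differed from each other in their response was not tested.

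**Figure D2:**
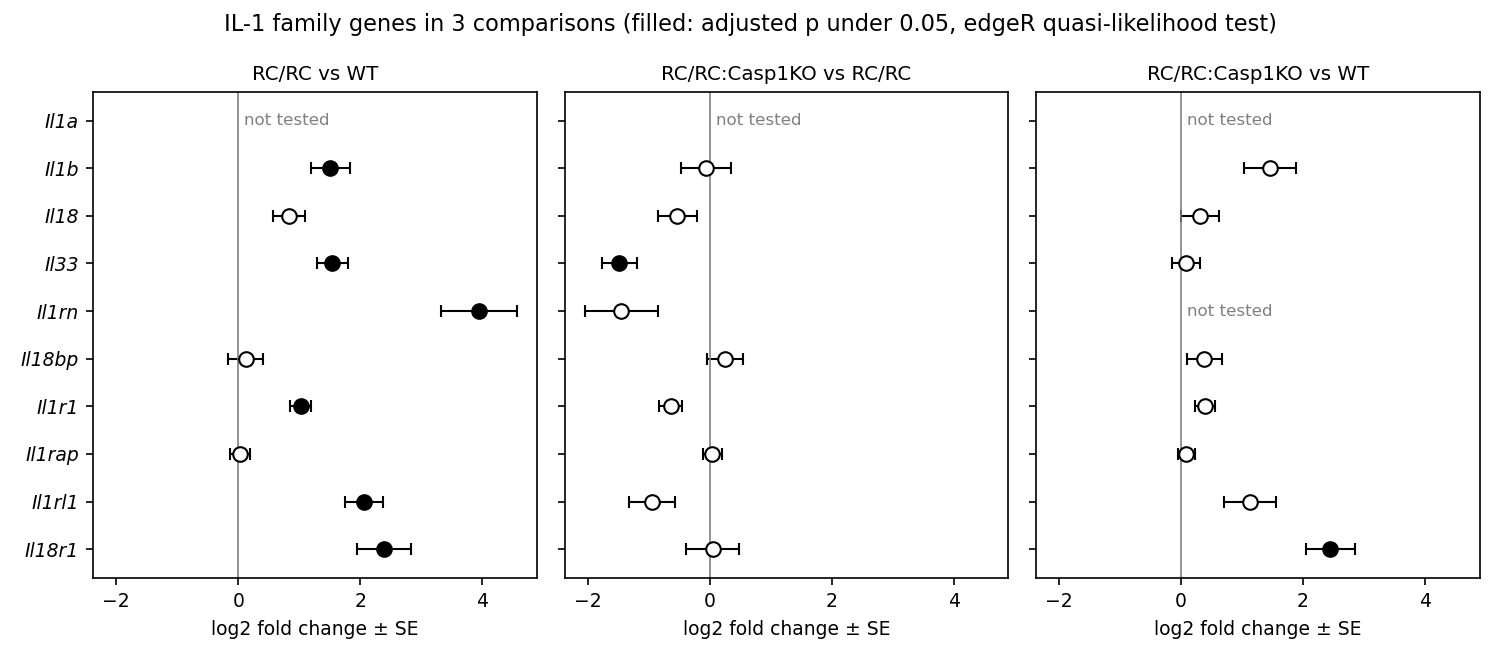
Log2 fold change ± standard error of each IL-1 family gene in 3 comparisons of 4 mice against 4, from edgeR's quasi-likelihood test. Filled points passed an adjusted p of 0.05 over all genes tested, and *Il1a* and, against WT, *Il1rn* in RC/RC:*Casp1*KO had too few reads for a test. Between RC/RC and WT 6 points are filled, all to the right of 0, between the mutants *Il33* alone, at −1.48, and between RC/RC:*Casp1*KO and WT *Il18r1* alone, at 2.45.

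Taking the members as a list, the median log2 fold change of those tested was 1.51 for RC/RC against WT, −0.53 between the mutants and 0.39 for RC/RC:*Casp1*KO against WT, where the medians of all genes tested were −0.02, −0.03 and 0.01. The groups did not overlap for 7 of 9 members in the first comparison (19.6% of all genes tested), for 1 of 9 in the second (20.4%) and for 2 of 8, *Il1b* and *Il18r1*, between RC/RC:*Casp1*KO and WT (13.9%). At an unadjusted p under 0.05 stood 7, 4 and 4 members, against 29.2%, 31.7% and 21.8% of all genes. Members that passed the filter only through the group in which they are high had to differ, so these counts describe the list and are not independent support. The comparisons share mice: RC/RC enters the first and second and WT the first and the third. In bulk tissue, fewer cells of a type and less RNA per cell cannot be told apart.

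Levels of different genes can be set side by side per length, as CPM per kilobase of gene model. In WT kidneys *Il33* (3.85 ± 0.754 CPM per kilobase) and *Il18bp* (3.71 ± 1.14) had the highest means, with overlapping ranges (SD, n = 4 each). *Il1r1* (2.23 ± 0.230), *Il1rap* (2.18 ± 0.270) and *Il18* (1.70 ± 0.190) followed, each overlapping its neighbour in this order, and *Il1b* (0.793 ± 0.200) lay below all of them without overlap. *Il18r1* (0.233), *Il1rl1* (0.109), *Il1a* (0.0985) and *Il1rn* (0.0532) were lowest. In RC/RC kidneys *Il33* stood alone at 11.2 ± 4.50 CPM per kilobase, with its lowest mouse at 8.39 against at most 5.87 for any other member. Below it *Il1r1* (4.54), *Il18bp* (4.02), *Il18* (3.03), *Il1b* (2.26) and *Il1rap* (2.21) formed an order in which every neighbour overlapped the next, and *Il18r1* (1.23), *Il1rn* (0.861), *Il1rl1* (0.459) and *Il1a* (0.0803) were lowest. In RC/RC:*Casp1*KO kidneys *Il33* (4.05 ± 1.14) was no longer apart, since its range overlapped those of *Il18bp* (4.81 ± 1.65) and *Il1r1* (2.92 ± 0.623). *Il1rap* (2.30), *Il1b* (2.19), *Il18* (2.12) and *Il18r1* (1.27) followed with overlapping ranges, above *Il1rn* (0.315), *Il1rl1* (0.240) and *Il1a* (0.0760). The inhibitory receptor *Sigirr* of the wider family lay above all members, at 41.6 CPM per kilobase in WT, 33.3 in RC/RC and 35.6 in RC/RC:*Casp1*KO, with no call in any comparison.

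How an inhibitor stood against its cytokine was followed as a log2 ratio of counts within each library, which no scaling between libraries can alter, with 0.5 added to each count. There were 9 such tests, each an exact two-sided permutation test over 70 assignments of 4 mice against 4, for which the smallest possible p is 0.0286. The *Il1rn* to *Il1b* log2 ratio was −2.39, −1.91, −4.20 and −4.95 in the WT mice, −1.30, −0.44, 0.00 and −0.37 in RC/RC and −3.52, −2.44, −1.47 and −1.42 in RC/RC:*Casp1*KO. RC/RC lay above both other groups without overlap, and WT and RC/RC:*Casp1*KO overlapped. Summed over mice, there were 0.664 *Il1rn* reads for each *Il1b* read in RC/RC (178 against 268), 0.267 in RC/RC:*Casp1*KO (68 against 255) and 0.124 in WT (11 against 89). The difference of the mean log2 ratios was 2.83 for RC/RC against WT (standard error 0.774) and −1.68 between the mutants (standard error 0.566), each at the smallest exact permutation p of 0.0286 and 0.129 after Benjamini-Hochberg adjustment over the 9 tests, which does not pass. RC/RC:*Casp1*KO against WT gave 1.15 (exact permutation p = 0.229, adjusted 0.331). With 2 counts added in place of 0.5, which bears on the WT mice with few *Il1rn* reads, the first difference was 2.02 and that between the mutants −1.53, each at the same exact permutation p of 0.0286, and the double mutants differed from WT by 0.49 (exact permutation p = 0.400). Without RC/RC mouse B the difference between the mutants was −1.65, and without RC/RC:*Casp1*KO mouse C it was −1.93, each at the exact permutation p of 0.0571 that is the smallest for 3 mice against 4 in this two-sided test.

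The *Il18bp* to *Il18* log2 ratio, 2.06 ± 0.557 in WT, 1.37 ± 0.649 in RC/RC and 2.18 ± 0.915 in RC/RC:*Casp1*KO (SD, n = 4 each), overlapped in all groups (exact permutation p = 0.257, 0.257 and 0.857 for the 3 comparisons, adjusted 0.331, 0.331 and 0.857). The ratio of *Il1b* to *Ptprc*, which encodes the pan-leukocyte antigen CD45, was −3.87 ± 0.424 in WT, −3.25 ± 0.309 in RC/RC and −3.37 ± 0.429 in RC/RC:*Casp1*KO on the log2 scale. RC/RC exceeded WT by 0.62 (exact permutation p = 0.0857, adjusted 0.257), and the mutants differed by −0.13 (exact permutation p = 0.629, adjusted 0.707). RC/RC:*Casp1*KO exceeded WT by 0.49 (exact permutation p = 0.143, adjusted 0.321). Chosen after the values were seen, the ratios of *Il33* to *Il1b* and of *Il33* to *Il18r1* were compared between the mutants. *Il1b* and *Il18r1* had hardly changed there and *Il33* had been called, so a gap followed from the choice and is not independent support. *Il1rn* (−1.45), *Il1rl1* (−0.95), *Il1r1* (−0.64) and *Il18* (−0.53), also lower in the double mutants though not called, were not compared with *Il33* in this way. Neither were *Il1rap* and *Il18bp*. The log2 ratio to *Il1b* was 3.20 ± 0.542 in RC/RC and 1.91 ± 0.748 in RC/RC:*Casp1*KO, and that to *Il18r1* 2.58 ± 0.837 and 1.03 ± 0.523 (SD, n = 4 each). The differences, −1.28 and −1.55, both had an exact permutation p of 0.0571, also after adjustment over the pair, and the groups overlapped.

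**Figure D3:**
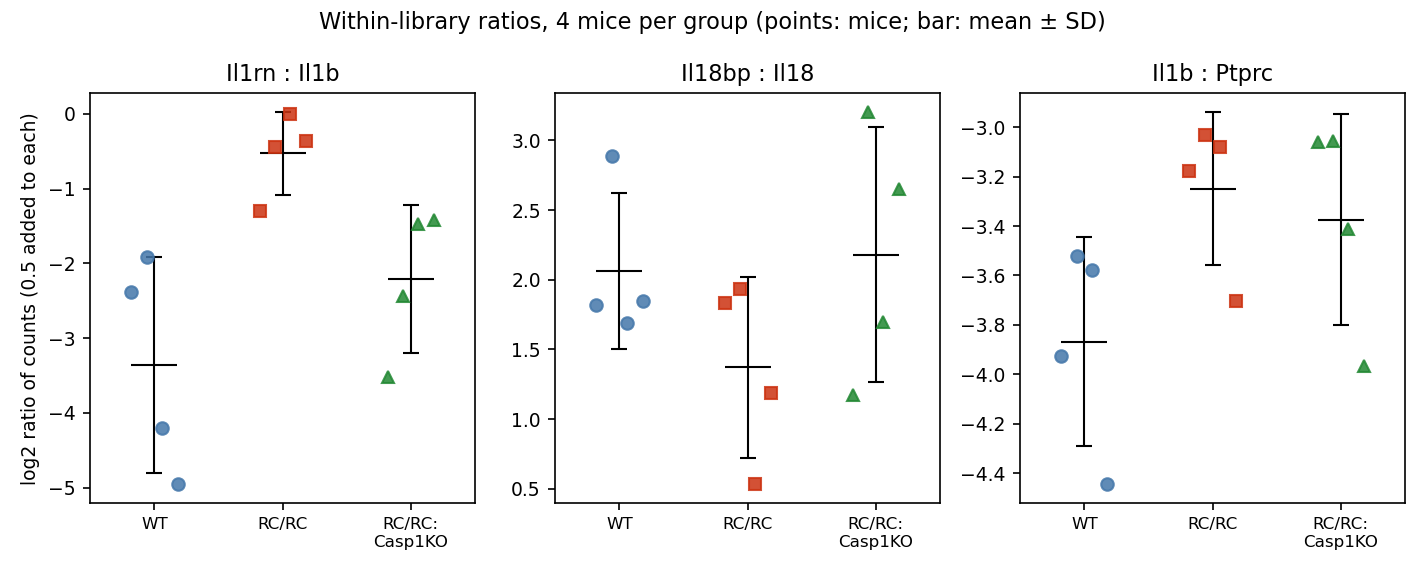
Log2 ratios of counts within each library for *Il1rn* to *Il1b*, *Il18bp* to *Il18* and *Il1b* to *Ptprc*, with 1 point per mouse (circles WT, squares RC/RC, triangles RC/RC:*Casp1*KO) and black bars for the mean ± SD of 4 mice. The vertical axes differ and do not start at 0. For *Il1rn* to *Il1b* the RC/RC mice, from −1.30 to 0.00, lie above all other mice, and the other ratios overlap between groups.

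Genes of other cell types moved with the members, and their part in these results was not tested. Counts of genes called in this and later lists stand beside the shares of all genes tested. These were 9.76% higher and 3.18% lower for RC/RC against WT and 7.23% higher and 4.41% lower between the mutants. For RC/RC:*Casp1*KO against WT they were 1.13% higher and 0.893% lower. The 3 pan-leukocyte genes, of which *Laptm5* was the most abundant, each rose from WT to RC/RC, and none was called between the mutants. They summed to 56.7, 42.4, 44.9 and 43.0 CPM in the WT mice, 129, 139, 107 and 90.1 in RC/RC and 60.9, 50.1, 138 and 67.3 in RC/RC:*Casp1*KO. In this sum mouse C, with the highest *Il1b*, was thus at the RC/RC level. The other 3 RC/RC:*Casp1*KO mice, at 50.1 to 67.3 CPM, lay below all RC/RC mice and overlapped WT, while their *Il1b*, at 1.57 to 2.83 CPM, was above all WT mice. The sum does not hold for each gene. *Ptprc* in these mice was at 23.8, 16.3 and 24.9 CPM, overlapping RC/RC (22.9 to 35.4). *Coro1a* was at 16.6 CPM or more in all RC/RC:*Casp1*KO mice, against at most 15.0 in WT. Of 11 macrophage and dendritic cell genes, led by *Csf1r*, 9 rose from WT to RC/RC and 1 was lower in RC/RC:*Casp1*KO than RC/RC. Their sum was 132, 121, 127 and 119 CPM in the WT mice, 332, 259, 235 and 229 in RC/RC and 147, 200, 304 and 192 in RC/RC:*Casp1*KO. In this sum every mouse of both mutant groups exceeded every WT mouse, as for *Il1b*. Much of the sum was *Csf1r*, at 62.2 to 79.2 CPM in the WT mice and 81.7 to 136 in RC/RC:*Casp1*KO. Between RC/RC:*Casp1*KO and WT none of the 11 was called, and for 5 the groups did not overlap (13.9% of all genes tested). The separation of the sum thus does not hold for each gene. The 8 neutrophil genes, led by *Csf3r*, summed to 0.905 to 4.38 CPM in the WT mice, 4.32 to 7.25 in RC/RC and 2.49 to 7.501 in RC/RC:*Casp1*KO. For RC/RC against WT 3 of the 8 could be tested, for each other comparison 2, and none was called. *Csf3r* was at 1.44 ± 0.895 CPM in WT, 3.53 ± 0.704 in RC/RC and 2.998 ± 2.11 in RC/RC:*Casp1*KO (SD, n = 4 each), and all RC/RC mice lay above all WT mice (log2 difference 1.29, edgeR adjusted p = 0.0791). *Cxcr2* had the same order of means, at 0.107, 0.257 and 0.152 CPM in WT, RC/RC and the double mutants. It had at most 12 reads in any mouse, and its groups overlapped. *S100a8*, *S100a9* and *Retnlg* did not share this order. *S100a8* was at 0.473, 0.692 and 0.186 CPM in WT, RC/RC and the double mutants, *S100a9* at 0.517, 0.532 and 0.364 and *Retnlg* at 0.255, 0.299 and 0.134, with at most 20 reads in any mouse. The defining members *Ly6g*, *Mpo* and *Camp* had at most 3 reads in any mouse. The 9 genes of T cells, NK cells and innate lymphoid cells, cells that can carry *Il18r1* and *Il1rl1*, summed to 17.0 to 25.95 CPM in WT, 28.2 to 52.8 in RC/RC and 24.3 to 42.3 in RC/RC:*Casp1*KO, with *Gata3*, which collecting duct cells also express, the most abundant, at 16.0 CPM of the 21.5 in WT, and not called. Of the 8 tested, 4 rose from WT to RC/RC, the T cell receptor complex genes *Cd3e* (3.86-fold) and *Cd3d* (4.00-fold), the coreceptor *Cd4* (3.85-fold) and *Il7r* (4.15-fold), the receptor of IL-7, and none was called between RC/RC:*Casp1*KO and either group. Among mast cell and basophil genes *Kit*, which other kidney cells also express, was the most abundant, at 30.8 CPM of the 31.6 that the list summed to in WT, and *Fcer1a* and *Mcpt8* had at most 3 reads in any mouse. The mast cell and basophil list summed to 46.3, 32.4, 22.98 and 24.8 CPM in the WT mice, 35.5, 26.8, 27.1 and 26.0 in RC/RC and 23.7, 29.9, 33.2 and 36.9 in RC/RC:*Casp1*KO, and none of its 2 or 3 genes tested in a comparison was called. *Tpsb2*, a mast cell tryptase, had no read in the WT mice, 31, 13, 1 and 4 in RC/RC and 7, 41, 3 and 14 in RC/RC:*Casp1*KO, so both mutant groups lay above WT without overlap. It had too few reads for a test against WT and was not called between the mutants (log2 difference 0.39, edgeR adjusted p = 0.777). The 5 B and plasma cell genes, led by *Igj*, summed to 4.99 to 10.96 CPM in WT, 147 to 251 in RC/RC and 52.3 to 150 in RC/RC:*Casp1*KO. Each of the 5 rose from WT to RC/RC, none was called between the mutants, and 3 of 4 tested were higher in RC/RC:*Casp1*KO than WT, where the members had *Il18r1* alone.

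The 5 fibroblast and pericyte genes had the same order of groups as *Il33*, and their part in its change was not tested. Each rose from WT to RC/RC, and 3, *Col1a1*, *Col3a1* and *Dcn*, were lower in RC/RC:*Casp1*KO than RC/RC. They summed to 225, 157, 186 and 225 CPM in the WT mice, 885, 1431, 796 and 607 in RC/RC and 241, 249, 536 and 360 in RC/RC:*Casp1*KO, with *Col3a1* the most abundant. RC/RC mouse B was highest in both measures, and RC/RC:*Casp1*KO mouse C was the highest of its group in both. *Dcn* remained above WT in RC/RC:*Casp1*KO (log2 fold change 1.02, edgeR adjusted p = 0.00799), where *Il33* differed from WT by 0.08. The 4 endothelial genes, another source of IL-33, summed to 310 ± 30.1 CPM in WT, 375 ± 61.7 in RC/RC and 299 ± 29.3 in RC/RC:*Casp1*KO (SD, n = 4 each), and none was called in any comparison.

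Some markers of the tubule, whose cells make up most of the kidney and can also express *Il18*, were lower in RC/RC than WT, and their part in the results was not tested. The 6 proximal tubule genes summed to 8150, 9428, 11861 and 12994 CPM in the WT mice, 5300, 3648, 6113 and 9166 in RC/RC and 11927, 9907, 10094 and 9531 in RC/RC:*Casp1*KO. *Slc5a2* (−1.23, edgeR adjusted p = 0.0199), a glucose transporter, and *Cubn* (−1.08, edgeR adjusted p = 0.0319), a receptor for filtered protein, were lower in RC/RC than WT. *Lrp2* (1.52, edgeR adjusted p = 0.0144), which works with *Cubn*, and *Cubn* (1.34, edgeR adjusted p = 0.0146) were higher in the double mutants than in RC/RC. Of 7 genes of the distal convoluted tubule and collecting duct, *Slc12a3*, the sodium-chloride cotransporter, was lower in RC/RC than WT (−2.03, edgeR adjusted p = 0.00444) and higher again between the mutants (1.44, edgeR adjusted p = 0.0454), and no other was called. None of either list was called between the double mutants and WT.

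**Figure D4:**
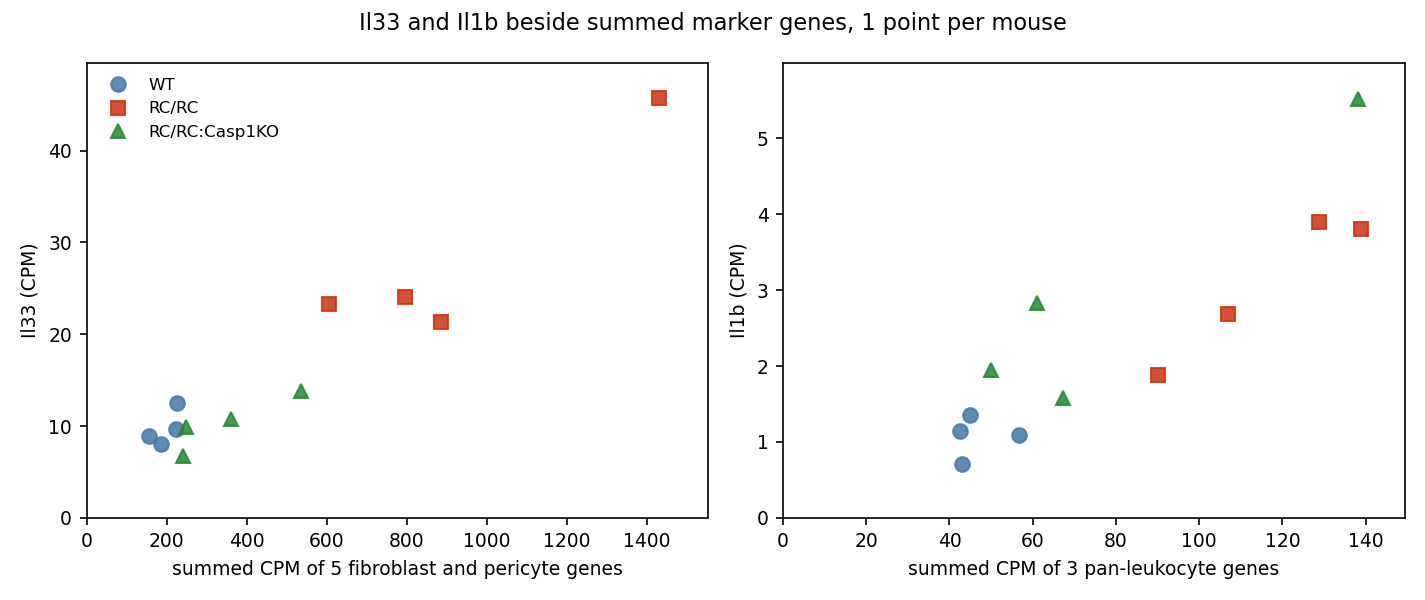
*Il33* against the summed CPM of 5 fibroblast and pericyte genes (left) and *Il1b* against the summed CPM of 3 pan-leukocyte genes (right), with 1 point per mouse on linear axes that start at 0. On the left the RC/RC mice (squares) lie to the upper right of all others, with mouse B at 1431 and 45.7 CPM. On the right RC/RC:*Casp1*KO mouse C (triangle) lies among the RC/RC mice in leukocyte genes, at 138 CPM, and above them in *Il1b*, at 5.52 CPM.

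The remaining genes of the family include the IL-36 cytokines and their receptor and the second chain of the IL-18 receptor. Of these 11 genes, 4 were tested between RC/RC and WT and 3 were higher, where 9.76% of all genes tested were. The median log2 fold change of the 4 was 1.54, against −0.02 over all genes. *Il1f6*, which encodes IL-36α, had no read in any WT mouse, 37, 39, 14 and 19 in RC/RC and 5, 4, 9 and 5 in RC/RC:*Casp1*KO. At 1.26 ± 0.613 CPM it was at least 8.73-fold higher in RC/RC than the level of 3 counts in WT, and between the mutants it dropped by 2.22 in log2 units (standard error 0.45, edgeR adjusted p = 0.0191). Of the 11, 5 were tested in that comparison, and *Il1f6* was the only one called. Its groups did not overlap, but it passed the filter through the RC/RC mice alone, as it did in RC/RC against WT. It thus had to differ in both, and its part in these counts and in the median is not independent support. *Il1rl2*, the IL-36 receptor, rose by 1.89 (standard error 0.30, edgeR adjusted p = 0.00421) and *Il18rap*, the partner of *Il18r1*, by 1.19 (standard error 0.31, edgeR adjusted p = 0.0348) in RC/RC over WT. Between RC/RC:*Casp1*KO and WT 4 of the 11 were tested and none was called. *Il1f6*, not tested there, was at least 1.87-fold higher in RC/RC:*Casp1*KO than the level of 3 counts in WT, without overlap. *Sigirr* differed from WT by −0.32 in RC/RC (edgeR adjusted p = 0.0854), with all RC/RC mice below all WT mice. *Il1f8*, *Il1f9*, *Il1f10*, *Il1rapl1* and *Il1rapl2* had at most 3 reads in any mouse.

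Of 22 genes that carry the signal from the receptors to NF-κB, 5 rose from WT to RC/RC (9.76% of all genes tested) and none fell. Their median log2 fold change was −0.02, as over all genes. The largest increases were those of *Relb* (1.29, edgeR adjusted p = 0.000708) and *Nfkb2* (0.89, edgeR adjusted p = 0.00277), NF-κB subunits, of *Irak3* (1.28, edgeR adjusted p = 0.0276), a brake on the receptor kinases, and of *Myd88* (0.69, edgeR adjusted p = 0.0139), the adaptor of IL-1 and most Toll-like receptors. *Nfkb2* (−0.65, edgeR adjusted p = 0.0490) and *Myd88* (−0.56, edgeR adjusted p = 0.0345) fell between RC/RC and the double mutants, and no gene of the list was called against WT. *Myd88* was at 12.8 ± 1.73 CPM in WT, 20.6 ± 2.89 in RC/RC and 14.1 ± 1.79 in RC/RC:*Casp1*KO (SD, n = 4 each), with all RC/RC mice above all others.

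Genes that process or release the cytokines rose in part. Of 13 tested among 20, 5 rose from WT to RC/RC (9.76% of all genes tested) and none fell. They included *Aim2* (1.69, edgeR adjusted p = 0.00296), a DNA sensor, *Casp4* (1.22, edgeR adjusted p = 0.0113), the caspase that senses lipopolysaccharide, *Casp1* itself (1.21, edgeR adjusted p = 0.0142) and *Gsdmd* (0.75, edgeR adjusted p = 0.0391), whose product forms the pore through which IL-1β leaves the cell. Between the mutants 2 fell, *Casp1* and *Pycard* (−0.65, edgeR adjusted p = 0.0368), the adaptor that joins sensors to caspase-1. *Pycard* was at 11.7, 8.90, 6.59 and 8.24 CPM in the WT mice, 13.04, 16.7, 12.9 and 11.5 in RC/RC and 6.82, 8.78, 9.99 and 9.10 in RC/RC:*Casp1*KO, the last all below all RC/RC mice. *Nlrp3*, the sensor most often linked to IL-1β, was at 0.686, 1.54 and 1.05 CPM and was not called (edgeR adjusted p = 0.0660 for RC/RC against WT). Of the neutrophil proteases that can cut the same cytokines, *Elane* and *Ctsg* had at most 1 read in any mouse, and *Prtn3*, not tested in any comparison, had 2, 0, 0 and 2 reads in the WT mice, 13, 28, 18 and 6 in RC/RC and 2, 5, 4 and 9 in RC/RC:*Casp1*KO.

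Of 26 genes known to be induced by IL-1, IL-18 or IL-33 in other systems, 14 were tested between RC/RC and WT. Of these, 10 were higher (9.76% of all genes tested), none lower, with a median log2 fold change of 1.68 against −0.02 over all genes. The largest increases were those of *Lcn2* (5.54, edgeR adjusted p = 6.5e-05), an iron-binding protein of injured tubule, the chemokine genes *Cxcl2* (4.03, edgeR adjusted p = 0.00377) and *Cxcl5* (3.71, edgeR adjusted p = 0.00262) and the matrix protease gene *Mmp3* (3.64, edgeR adjusted p = 0.00653). *Cxcl2* and *Cxcl5*, with at most 2 and 3 reads in any WT mouse, passed the filter on low counts through the RC/RC mice alone. *Lcn2* is also in the injured tubule list, of whose 5 genes 4 rose from WT to RC/RC and none was called between the mutants. Against RC/RC, 1 of the 15 tested fell in RC/RC:*Casp1*KO, *Mmp9* (−1.08, edgeR adjusted p = 0.0409), where 4.41% of all genes did. An unadjusted p under 0.05 was seen for 8 of the 15 (31.7% of all genes), and the median was −0.92, against −0.03 over all genes. *Lcn2* was at 102, 106, 70.3 and 49.5 CPM in the RC/RC mice and 4.66, 8.10, 62.9 and 12.8 in RC/RC:*Casp1*KO, against 0.857 to 2.38 in WT, so that mouse C stood at the RC/RC level here too. None of the 11 tested between RC/RC:*Casp1*KO and WT was called. The T cell products *Ifng*, *Il13* and *Il17a*, which IL-18 and IL-33 can elicit, had at most 4 reads in any mouse.

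The genes whose log2 CPM followed a cytokine gene most closely over the 12 mice, among 15874, are given as a description, since all values come from the same libraries and groups. For *Il33* they were *Tgfb3* (Pearson r = 0.984), *Zcchc24* (0.982) and *Prelp* (0.980). *Tgfb3* was at 2.83 CPM in WT, 10.4 in RC/RC and 3.28 in RC/RC:*Casp1*KO, the same order of groups as *Il33*. For *Il1b* they were *Itgal* (0.956), *Ighv1-58* (0.952) and *Fes* (0.949). *Itgal* was at 5.19, 10.5 and 9.64 CPM, again with the mutants close together. *Il1rn* was most like *Lgi2* (0.964), *Ccl3* (0.957) and *S1pr4* (0.952), and *Il18* most like *Armc10* (0.909), *Nasp* (0.880) and *Zfp64* (0.879). *Armc10* was at 20.3, 22.9 and 20.5 CPM in these groups in the same order.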

How the data were processed

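RNA from kidneys of 12 mice was sequenced. The authors deposited 1 table with a read count per gene and mouse, made from libraries of poly-T selected RNA, with reads processed with CASAVA 1.8 and STAR on mm10 per the submitters' processing notes. The counting tool, the annotation and the use of strand are not given in the sources used here. Deposited counts are whole and not normalised. The table also holds FPKM columns and the fold changes and p-values of the authors' own comparisons, which were not used here, and CPM per kilobase was computed from the counts and the gene length it lists. Columns were tied to groups by the strain or allele in their names and carry mouse numbers that match no replicate number.

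Counts were tested for each pair of groups with edgeR 4.0.16 in R 4.3.3 (TMM factors, filterByExpr, glmQLFit, glmQLFTest), with Benjamini-Hochberg adjustment over all genes tested and a threshold of 0.05. Standard errors were obtained as the size of the log2 fold change over √F. Genes passed the filter at 0.451 CPM (RC/RC against WT), 0.504 (between the mutants) or 0.473 (double mutants against WT) in at least 4 mice. On simulated counts for RC/RC against WT (14989 genes tested), edgeR recovered 77 of 100 genes changed 2-fold and 100 of 100 changed 4-fold, with 8 false calls. The changed genes were drawn from those with an expected mean above 20 counts. All genes had the same dispersion of 0.05, and no pairs of libraries were simulated. These rates thus check the code and do not describe the spread of these mice or members with few WT reads, such as *Il1rn* and *Il1rl1*. Alternatives were DESeq2 1.42.0, other size factors and filters, a fit of all 12 mice and leaving out each mouse. Replicate libraries differed by more than sampling noise in all 18 pairs within groups (chi-square per degree of freedom 15.7 to 128, genes with at least 20 counts in a pair). Near-identical stretches were sought with BLAST 2.17.0 at 95% identity over at least 100 bases.

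The members, gene lists and tests were chosen with earlier results of these data known. Named were the members, *Casp1* and *Pkd1*, from each list up to 4 DEGs with the largest fold change per comparison, the most abundant and the scarcely read marker genes, and the 3 genes most correlated with *Il1b*, *Il18*, *Il33* and *Il1rn*. *Sigirr*, *Nlrp3*, *Prtn3*, *Tpsb2*, *Slc22a6*, *S100a8*, *S100a9*, *Retnlg*, *Cxcr2*, *Numa1* and the values of *Lcn2* between the mutants were chosen after their values were seen. The limit of 3 counts covers counting error only, whereas SDs and standard errors carry the spread between mice.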

Additional observations from a re-analysis of the deposited data

Results flagged for a closer look

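Among 39 groups of 4 mice examined for a single distant mouse, 3 had one, where chance gives about 1 in 20. *Il33* in RC/RC had its highest mouse, B, at 45.7 CPM with the next at 24.1. *Il18bp* in WT had its highest mouse, B, at 7.57 CPM with the next at 4.48. The log2 ratio of *Il18bp* to *Il18* in WT was highest in the same mouse, at 2.89 with the next at 1.85.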

How the results depend on the processing

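The 6 increases in RC/RC over WT passed in every alternative in which the gene was tested and without each mouse in turn, while *Il1rn* and *Il1rl1* were not tested with at least 10 counts in every mouse, and *Il18* then passed (0.84, edgeR adjusted p = 0.0485). *Il33* between the mutants passed in 7 of 7 alternatives and without 6 of 8 mice, with log2 differences of −1.65 to −1.14 over the latter. *Il18r1* against WT passed in 7 of 7 alternatives and without 4 of 8 mice. With DESeq2 there were 2988 DEGs for RC/RC against WT, 3175 between the mutants (2 members lower) and 1406 for RC/RC:*Casp1*KO against WT (2 members higher, *Il18r1* and *Il1b*), against 1971, 1797 and 311 in edgeR. Library size alone gave 993 DEGs between the mutants, 81.97% higher against 62.10%, and 79.83% higher against 55.95% for RC/RC:*Casp1*KO against WT, where it moved the median of all genes to 0.14. At least 10 counts in every mouse gave 167 DEGs there. The fit of all 12 mice gave 2014 DEGs and 2 members lower between the mutants. Without RC/RC mouse B and RC/RC:*Casp1*KO mouse C, chosen after seeing the data, there were 1270, 914 and 123 DEGs and 2 members lower between the mutants, and differences not called changed sign: *Il1rap* (−0.082) and *Il18r1* (−0.15) between the mutants and *Il33* against WT (−0.10). The causes were not tested.

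Leaving out 1 mouse gave 1162 (without WT mouse D) to 2440 DEGs (without RC/RC mouse D), 438 (without RC/RC mouse C) to 2789 (without RC/RC mouse A) and 108 (without WT mouse D) to 547 (without RC/RC:*Casp1*KO mouse A) in the same order of comparisons, 0 (without RC/RC:*Casp1*KO mouse B or D) to 4 members lower (without RC/RC:*Casp1*KO mouse C) between the mutants and 0 to 1 member higher in RC/RC:*Casp1*KO than WT. Uncalled differences that changed sign ranged, for RC/RC against WT, from −0.057 to 0.11 for *Il1rap* and −0.14 to 0.36 for *Il18bp*. Between the mutants they ranged from −0.54 to 0.15 for *Il1b*, −0.037 to 0.11 for *Il1rap*, −0.32 to 0.32 for *Il18r1* and −0.0032 to 0.48 for *Il18bp*, and against WT from −0.10 to 0.23 for *Il33*. The *Il1rn* to *Il1b* log2 ratio differed by 2.30 to 3.32 (RC/RC against WT) and −1.95 to −1.25 (between the mutants), where the exact permutation p was 0.0571, the smallest that 3 mice against 4 give in this two-sided test. The *Il18bp* to *Il18* ratio ranged from −0.22 to 0.45 (RC/RC:*Casp1*KO against WT) and *Il1b* to *Ptprc* from −0.28 to 0.072 (between the mutants). No paired analysis was possible because the columns carry mouse numbers and no replicate numbers, and the pairs seen in the values were not used as a block, since no label says what they share. Depth limits *Il1a*, and *Il1rn* in WT.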
